A study of Mus musculus with 8 samples.

Results

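The genes described here are 40 transcripts that mark macrophages or leukocytes at large, measured in cultures of mouse embryonic fibroblasts (MEFs), the connective tissue cells grown out of embryos. They were chosen by symbol, with their measured rise in senescent over proliferating cultures known from earlier results of these data. Their levels in that comparison are therefore given as a description. All 40 matched 1 row each of the 54838 gene rows of the count tables. Messenger RNA was sequenced in 8 libraries, 2 in each of 4 groups, with total counts from 40608517 to 54183060.

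The groups n-Sen alkali and n-Sen control were senescent MEFs held for 24 h in HEPES-buffered medium of alkaline or control pH. The n-Sen group was senescent MEFs without that recorded pH step, and the proliferating group was labelled as control cells. In the 3 n-Sen groups senescence was brought about with nutlin3a, which stabilises p53, for 48 h after a block in G2 with the CDK1 inhibitor RO3306. The cells then stayed for 14 days in 100 nM BI-2536, an inhibitor of the mitotic kinase PLK1 used to remove cells that still divided. The pH values were not given in the labels. All cultures grew in low oxygen, in DMEM with fetal bovine serum. No mouse strain, passage number, embryo or sorting step for leukocytes was recorded. Separate cultures were not recorded either, so the p-values measure the spread between these libraries, which may be technical. Treatment, inhibitor and time in culture cannot be told apart between n-Sen and proliferating cells.

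Macrophages are phagocytes that derive from blood-forming progenitors and settle in nearly every embryonic and adult tissue. Their identity depends on the transcription factor PU.1, encoded by Spi1, and their survival on signals through the receptor encoded by Csf1r, whose ligands CSF1 and IL-34 are made by stromal cells such as fibroblasts. They clear dead cells and particles with scavenger, complement and Fc receptors, many of which signal through small adaptor chains to the kinase SYK. In bulk RNA a change in the number of cells of a type and a change in the RNA of a gene per cell cannot be told apart.

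The sequences upstream of a few of these genes show what near-identical neighbours and PU.1-type motifs look like at these loci. Lyz2 and Lyz1 encode the lysozymes that cleave bacterial cell walls, lie 5476 bases apart on chromosome 10, and have coding sequences of 447 bases that are 95.1% identical. The 250 bases before each start are printed 5′ to 3′ from RefSeq on GRCm38.p6, minus strand, with capitals on bases that differ from, or have no partner in, the other gene.
Lyz2 chr10:117282273-117282522: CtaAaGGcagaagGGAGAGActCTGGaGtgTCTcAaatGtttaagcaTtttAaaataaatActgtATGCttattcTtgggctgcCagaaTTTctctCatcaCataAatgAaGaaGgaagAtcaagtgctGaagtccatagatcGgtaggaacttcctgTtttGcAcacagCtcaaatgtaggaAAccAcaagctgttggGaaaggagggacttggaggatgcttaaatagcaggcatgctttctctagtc
Lyz1 chr10:117292869-117293118: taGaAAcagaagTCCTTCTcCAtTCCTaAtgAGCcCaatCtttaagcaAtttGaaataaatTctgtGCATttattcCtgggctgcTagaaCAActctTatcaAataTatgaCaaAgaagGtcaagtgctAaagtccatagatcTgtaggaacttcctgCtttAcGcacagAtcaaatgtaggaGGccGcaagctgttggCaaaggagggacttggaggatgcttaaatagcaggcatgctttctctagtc
The last 50 bases before both starts are the same. Of 252 aligned columns, 200 were identical (79.4%). Reads from the pair may be split by the counting, so Lyz1, the scarcer of them, is reported as uncertain.

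The core motif of PU.1, searched as GAGGAA on both strands, was marked in capitals in the promoter of C1qc, printed because it holds the longer form GAGGAAGT. It is set beside the promoter of Cyba, which stands for the genes already abundant in proliferating cells. C1qc was chosen for display after the motif counts were seen.
C1qc chr4:136892915-136893164: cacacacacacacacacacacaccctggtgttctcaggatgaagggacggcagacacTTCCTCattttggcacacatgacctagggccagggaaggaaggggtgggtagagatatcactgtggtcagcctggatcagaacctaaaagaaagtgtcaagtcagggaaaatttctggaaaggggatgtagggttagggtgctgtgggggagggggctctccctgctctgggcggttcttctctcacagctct
Cyba chr8:122432941-122433190: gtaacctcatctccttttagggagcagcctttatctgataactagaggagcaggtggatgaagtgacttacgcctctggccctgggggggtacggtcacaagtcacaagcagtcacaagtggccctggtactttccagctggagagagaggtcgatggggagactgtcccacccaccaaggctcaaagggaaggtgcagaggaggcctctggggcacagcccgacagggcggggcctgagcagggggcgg
Both are on the minus strand. The C1qc match begins 193 bases before the start and reads TTCCTC on the printed strand. Of the 40 genes, 31 had a RefSeq promoter entry, and the first entry of each was used. GAGGAA was in 13 of these 31 windows (41.9%) and in 7639 of all 32851 windows of the same length (23.3%). The 13 were Ptprc, Fcgr3, Mrc1, Cd53, Laptm5, C1qb, C1qc, Clec7a, Itgam, Plek, Dock2, Aif1 and Trem2. Neither lysozyme window nor that of Cyba held it. The longer form GAGGAAGT, which contains the core, was in 1 of 31 windows and in 2.44% of all. The AP-1 motif TGANTCA was in 3 of 31 windows, those of C3ar1, Trem2 and Cybb, and in 6.75% of all. The E-box CACGTG was in 0 of 31 and in 6.02% of all. A match describes letters and not a bound site.

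Across the libraries the 40 genes separated the senescent cultures from the proliferating ones and differed far less among the senescent groups. They took 0.169% and 0.170% of the counts in n-Sen alkali, 0.200% and 0.188% in n-Sen control, 0.194% and 0.205% in n-Sen, and 0.0467% and 0.0424% in proliferating cells. Both proliferating libraries lay lowest, and both n-Sen alkali libraries lay below the other senescent ones. In the proliferating libraries most of these counts were those of Arhgdib, Cyba and Syk. Expression is given as CPM, the counts of a gene relative to the scaled library size. At least 10 CPM was reached by 33 to 37 of the 40 genes in each senescent library, and by 4 and 5 in the proliferating libraries.

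**Figure D1:**
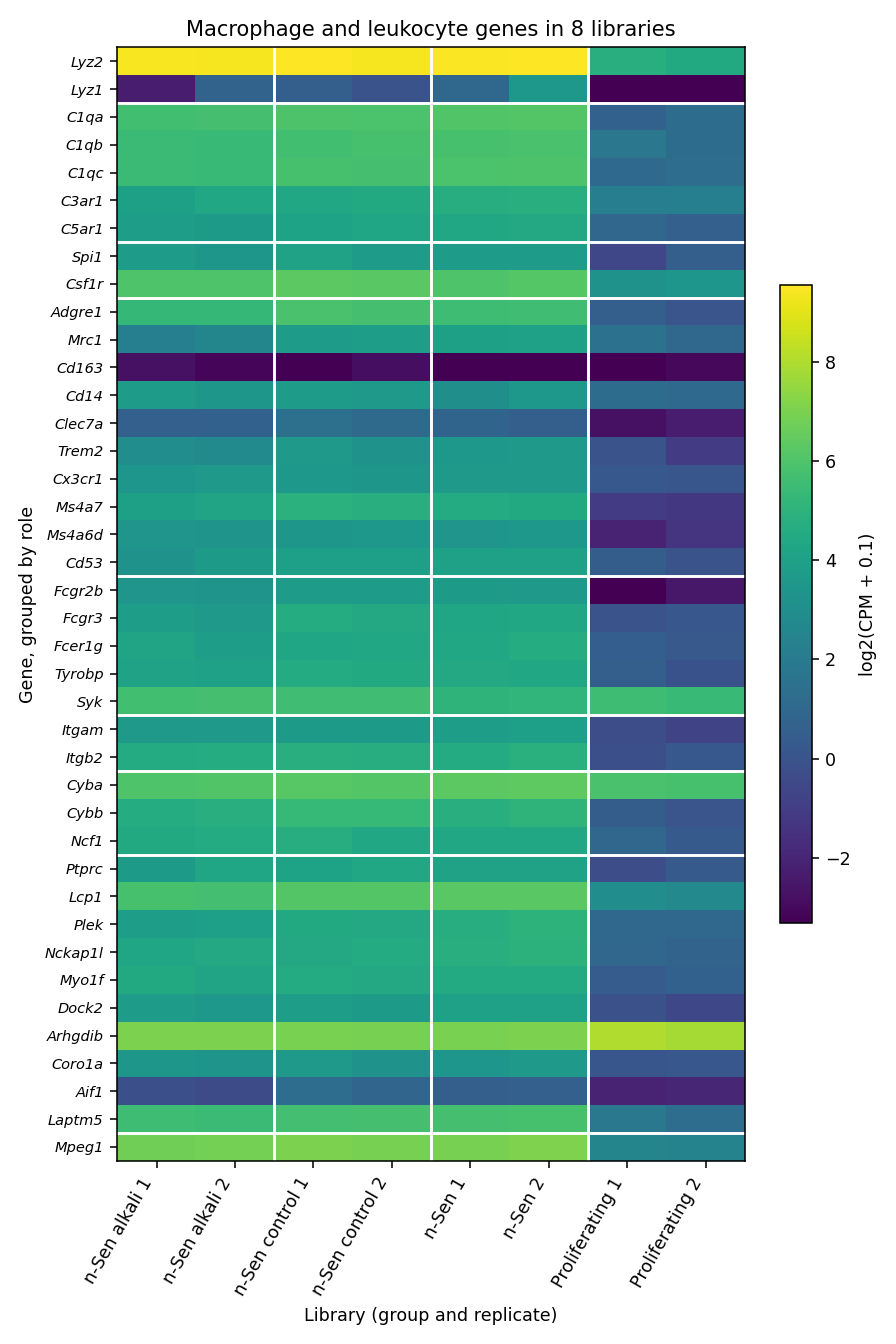
Level of each of the 40 genes (rows, grouped by role) in each of the 8 libraries (columns), as log2(CPM + 0.1) on a colour scale. Most rows are dark in the 2 proliferating libraries and light in the 6 senescent ones, while Arhgdib, Syk and Cyba are light in all 8 and Cd163 is dark in all 8.

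The comparison of n-Sen with proliferating cells is the one the genes were selected on. Of 39 genes that passed the filter on low counts, 37 were called higher and 2 lower by edgeR's quasi-likelihood test, where 34.0% of all 19264 genes tested were called higher and 33.1% lower. These counts follow from the choice of genes. Cd163 did not pass the filter, and 4 others (Lyz1, Clec7a, Fcgr2b and Aif1) were below its level in both proliferating libraries and passed only through n-Sen. The median log2 fold change of the 39 was 4.22, with quartiles of 3.55 and 4.70, and 26 of the 39 lay within 1 log2 unit of the median. The median over all genes tested was 0.0015. Values in parentheses after levels below are log2 fold changes ± SE of n-Sen over proliferating cells.

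Among the secreted proteins of phagocytes, Lyz2 was the most abundant of the 40 genes per length in the 3 senescent groups, but not in proliferating cells. Lyz2 stood at 677 and 675 CPM in n-Sen alkali, 732 and 672 CPM in n-Sen control, 712 and 751 CPM in n-Sen and 27.5 and 22.4 CPM in proliferating cells. The 6 senescent libraries lay within 1.12-fold of each other and far above both proliferating ones, and n-Sen was higher than proliferating cells by a log2 fold change of 4.88 ± 0.0766 (SE). Ranked by CPM per kilobase of exon among all genes, Lyz2 was between place 69 and place 76 in the senescent libraries, against places 2680 and 3220 in the proliferating ones. It made up 49.1% to 52.9% of the summed CPM per kilobase of the 40 genes in senescent libraries, and 8.19% and 7.45% in proliferating ones. Lyz1 had 0.0991 and 1.60 CPM in n-Sen alkali, 1.38 and 0.89 CPM in n-Sen control, 1.94 and 11.7 CPM in n-Sen and 0 and 0 CPM in proliferating cells. Replicate 2 of n-Sen held most of these reads and alkali replicate 1 almost none. Against a floor of 3 counts over both proliferating libraries, Lyz1 was at least 212-fold higher in n-Sen, a bound that rests mainly on n-Sen replicate 2. If both mates of a read pair were counted, which the sources used here do not give, the floor would stand for fewer fragments and the bound would be lower. Lyz1 was between 0.0146% and 1.56% of the Lyz2 level, as CPM, in senescent libraries.

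C1qa, C1qb and C1qc encode the chains of C1q, which starts the classical complement pathway and in mice is made largely by macrophages. They lie beside each other on chromosome 4 and their levels moved together across groups. C1qa stood at 50.8 and 53.2 CPM in n-Sen alkali, 61.2 and 59.5 CPM in n-Sen control, 65.5 and 69.7 CPM in n-Sen and 1.49 and 2.27 CPM in proliferating cells. C1qb stood at 44.2 and 42 CPM in n-Sen alkali, 50.6 and 56.2 CPM in n-Sen control, 55.3 and 57.1 CPM in n-Sen and 3.38 and 2.27 CPM in proliferating cells. C1qc stood at 43.8 and 42.7 CPM in n-Sen alkali, 55.3 and 53.7 CPM in n-Sen control, 59.5 and 62.8 CPM in n-Sen and 2.02 and 2.35 CPM in proliferating cells. All 3 were lowest in proliferating cells and next lowest in n-Sen alkali, with no overlap between these groups and the others. The ratio of C1qa to C1qb, as CPM, ran from 1.06 to 1.27 over the 6 senescent libraries. It was 0.440 and 1 in the proliferating libraries, where each chain had few counts. C3ar1 and C5ar1 encode the receptors for the complement fragments C3a and C5a. C3ar1 was at 26.2 and 27.6 CPM in n-Sen and 4.47 and 4.54 CPM in proliferating cells, and C5ar1 at 20.2 and 21.6 CPM in n-Sen and 1.82 and 1.43 CPM in proliferating cells, with log2 fold changes of 2.58 ± 0.115 and 3.69 ± 0.151.

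Spi1 and Csf1r, the lineage factor and the growth factor receptor, were both present in every library. Spi1 had 14 and 11 CPM in n-Sen alkali, 16.9 and 13.1 CPM in n-Sen control, 13.1 and 13.3 CPM in n-Sen and 0.576 and 1.41 CPM in proliferating cells. Csf1r had 63.8 and 63.4 CPM in n-Sen alkali, 78.3 and 76.9 CPM in n-Sen control, 64.4 and 70.8 CPM in n-Sen and 9.21 and 10.6 CPM in proliferating cells. Neither proliferating value overlapped a senescent one for either gene. The log2 fold change was 3.69 ± 0.237 for Spi1 and 2.77 ± 0.0929 for Csf1r. An exon of Hmgxb3 on the opposite strand covers 15.1% of the exon bases of Csf1r.

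Of the surface receptors, Adgre1, whose product is the classical mouse macrophage antigen, showed one of the largest differences. Adgre1 had 37.5 and 38.3 CPM in n-Sen alkali, 58.5 and 53.9 CPM in n-Sen control, 47.2 and 49.4 CPM in n-Sen and 1.37 and 0.956 CPM in proliferating cells, and its log2 fold change between n-Sen and proliferating cells was 5.40 ± 0.135. Both MS4A tetraspan genes differed more. Ms4a7 had 24.6 and 22.4 CPM in n-Sen and 0.384 and 0.319 CPM in proliferating cells (6.06 ± 0.183), and Ms4a6d had 10.6 and 11.4 CPM in n-Sen and 0.144 and 0.279 CPM in proliferating cells (5.64 ± 0.254). The receptors for pathogens, lipids and chemokines came next. Cd14, the co-receptor for lipopolysaccharide, had 8.41 and 11.6 CPM in n-Sen and 2.21 and 1.99 CPM in proliferating cells, the smallest difference among these receptors (2.26 ± 0.19). Trem2, a receptor for lipids and apoptotic cells, had 11.5 and 12 CPM in n-Sen and 0.888 and 0.388 CPM in proliferating cells (4.23 ± 0.238). Cx3cr1, the fractalkine receptor, had 12.2 and 12.4 CPM in n-Sen and 1.06 and 0.996 CPM in proliferating cells (3.58 ± 0.176). In each case both n-Sen libraries lay above both proliferating ones. The same held for Clec7a, the beta-glucan receptor, with 1.65 and 1.37 CPM in n-Sen and 0.048 and 0.0996 CPM in proliferating cells, and for the leukocyte tetraspanin Cd53, with 16.5 and 16.2 CPM in n-Sen and 1.27 and 0.876 CPM in proliferating cells. Mrc1, the mannose receptor, had 15.7 and 16.3 CPM in n-Sen and 2.69 and 1.89 CPM in proliferating cells (2.82 ± 0.161).

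Cd163, the scavenger receptor for haemoglobin bound to haptoglobin, was at or near 0 in all 8 libraries, with no value above 0.0496 CPM. It was the 1 gene of the 40 that was not tested in any comparison.

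The Fc receptors and the adaptor chains they use were scarce in proliferating cells. Fcgr2b, the inhibitory receptor for IgG, had 12.8 and 12.5 CPM in n-Sen and 0 and 0.0797 CPM in proliferating cells. Its fitted log2 fold change of 8.10 ± 0.341 rests on 4 counts in the proliferating libraries, which may be fewer fragments, and depends on how the fit treats them. Fcgr3, an activating receptor for IgG, had 19.7 and 20.8 CPM in n-Sen and 0.864 and 1.04 CPM in proliferating cells (4.40 ± 0.161). The adaptors Fcer1g, with 20.3 and 25.1 CPM in n-Sen and 1.34 and 1.12 CPM in proliferating cells, and Tyrobp, with 21.5 and 21.2 CPM in n-Sen and 1.39 and 0.856 CPM in proliferating cells, had log2 fold changes of 4.22 and 4.27. Syk, the kinase they recruit, ran the other way. It had 50.9 and 53.4 CPM in n-Sen alkali, 48.1 and 48.5 CPM in n-Sen control, 32.6 and 35.7 CPM in n-Sen and 46.8 and 41.2 CPM in proliferating cells, so that both n-Sen libraries lay below both proliferating ones (-0.36 ± 0.0825) while the HEPES-medium libraries lay above them. Syk was among the 5 genes of the set at 10 CPM or more in a proliferating library.

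Itgam and Itgb2 encode the subunits of the integrin that binds complement-coated particles. Itgam had 12.5 and 12.3 CPM in n-Sen alkali, 12.9 and 13.1 CPM in n-Sen control, 14.9 and 15.4 CPM in n-Sen and 0.72 and 0.518 CPM in proliferating cells, and Itgb2 had 24 and 24.9 CPM in n-Sen alkali, 26.4 and 26.3 CPM in n-Sen control, 24 and 28.7 CPM in n-Sen and 0.768 and 1.06 CPM in proliferating cells. Every senescent library lay above every proliferating one for both. Another annotated gene on the same strand, Gm49368, shares 68.7% of the exon bases of Itgam, so its level is uncertain.

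The phagocyte NADPH oxidase, which makes superoxide, contributed a membrane pair and a cytosolic subunit. Cybb, the catalytic subunit, had 25 and 27.4 CPM in n-Sen alkali, 40 and 39.8 CPM in n-Sen control, 27.5 and 32.7 CPM in n-Sen and 1.27 and 0.956 CPM in proliferating cells (n-Sen over proliferating, 4.77 ± 0.16). Ncf1, the cytosolic organiser, had 22.3 and 24.5 CPM in n-Sen alkali, 25.8 and 21 CPM in n-Sen control, 20.4 and 20.5 CPM in n-Sen and 1.80 and 1.16 CPM in proliferating cells (3.81 ± 0.167). Cyba, the partner of the catalytic subunit that other cell types also express, had 65 and 67.6 CPM in n-Sen alkali, 73.8 and 68.8 CPM in n-Sen control, 79.9 and 82 CPM in n-Sen and 57.6 and 56.4 CPM in proliferating cells (0.51 ± 0.0617). The proliferating libraries were the lowest for all 3, but for Cyba by a small margin.

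The intracellular leukocyte genes, apart from Arhgdib, were likewise higher in n-Sen. Ptprc, which encodes the pan-leukocyte phosphatase CD45, had 13 and 18.7 CPM in n-Sen alkali, 17.8 and 20.2 CPM in n-Sen control, 16.9 and 16.8 CPM in n-Sen and 0.72 and 1.15 CPM in proliferating cells (4.14 ± 0.184). The cytoskeletal and signalling genes Lcp1, Plek, Nckap1l, Myo1f, Dock2 and Coro1a had log2 fold changes between 3.44 and 4.55. Lcp1 was at 77 and 76.7 CPM in n-Sen and 7.73 and 6.51 CPM in proliferating cells. Laptm5, a lysosomal membrane protein of leukocytes, had 54.6 and 55.8 CPM in n-Sen and 3.48 and 2.31 CPM in proliferating cells. Mpeg1, which encodes the pore-forming perforin-2 of macrophages, had 109 and 117 CPM in n-Sen alkali, 128 and 120 CPM in n-Sen control, 119 and 133 CPM in n-Sen and 5.76 and 5.32 CPM in proliferating cells (4.51 ± 0.0877). Aif1, a calcium-binding protein used as a macrophage and microglia marker, was scarce throughout, with 1.42 and 1.43 CPM in n-Sen and 0.144 and 0.159 CPM in proliferating cells. Arhgdib, an inhibitor of small GTPases found in blood cells, was the other gene called lower. It had 127 and 129 CPM in n-Sen alkali, 123 and 122 CPM in n-Sen control, 126 and 130 CPM in n-Sen and 258 and 225 CPM in proliferating cells, about equal in the 3 senescent groups and higher in proliferating cells (log2 fold change -0.91 ± 0.0604).

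Per kilobase of exon, the order in n-Sen was Lyz2 (556 CPM per kb), Cyba (77.9), Arhgdib (75.2), C1qa (65) and C1qb (51.7). Levels of Cyba and Arhgdib, as neighbours in that order, were close. In proliferating cells the order was Arhgdib (142), Cyba (54.8), Lyz2 (18.9) and Syk (4.70), with every other gene of the set at or below 2.60 CPM per kb.

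**Figure D2:**
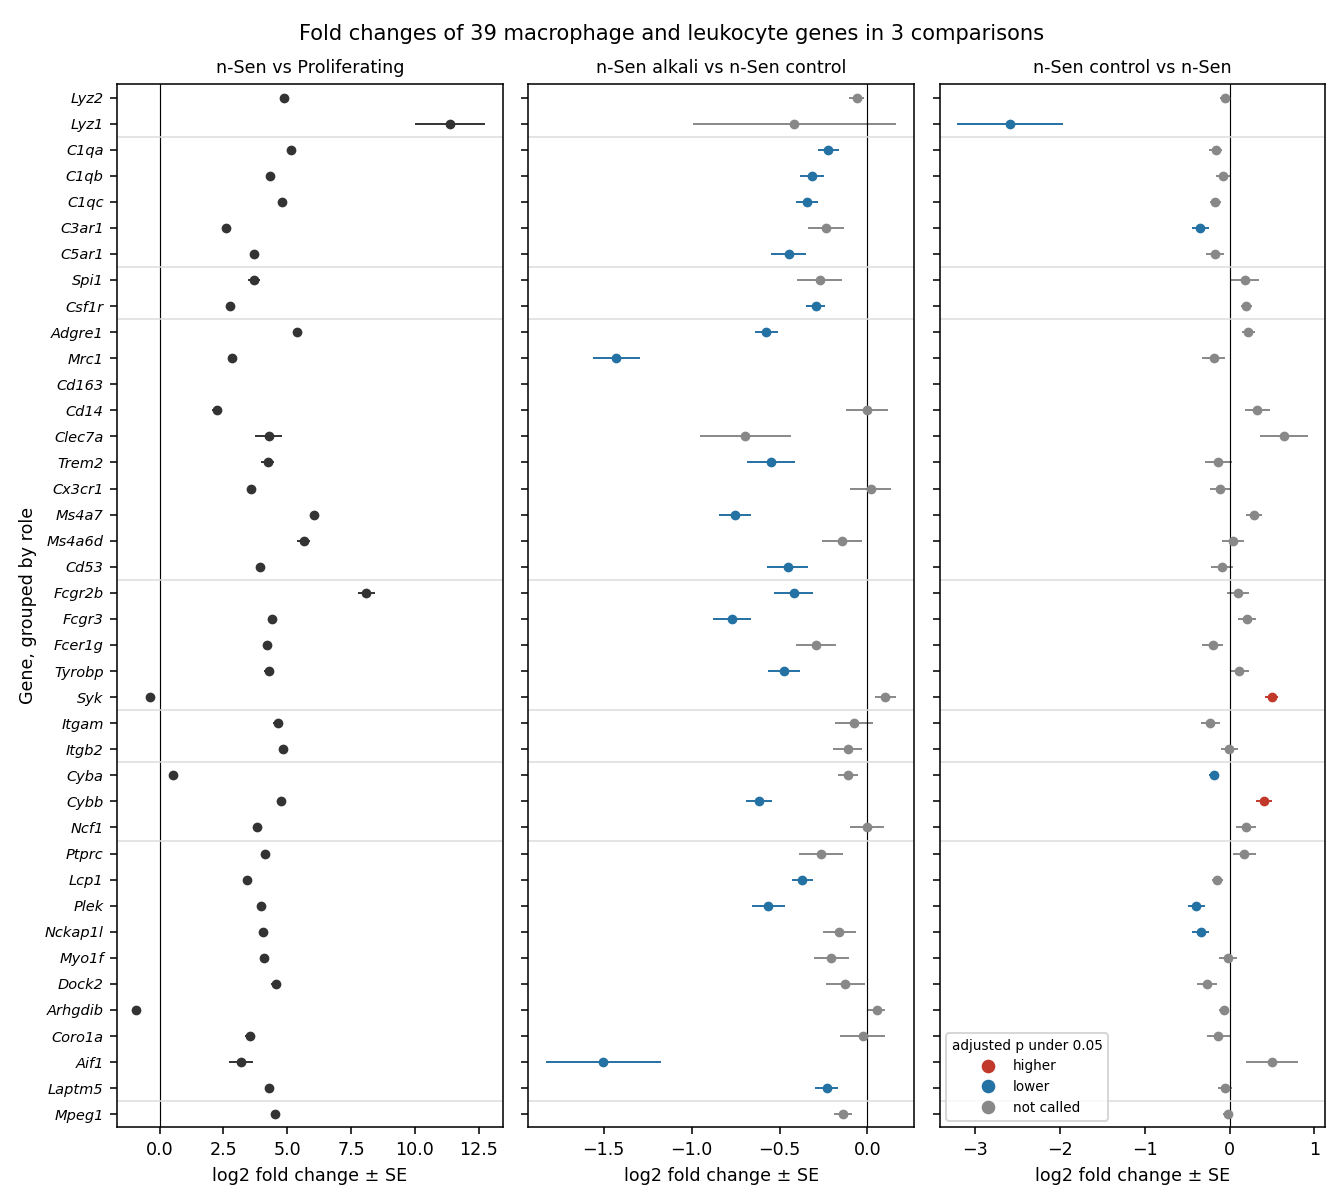
Log2 fold change ± SE of the 39 tested genes (rows, by role) in n-Sen over proliferating cells, n-Sen alkali over n-Sen control, and n-Sen control over n-Sen, each panel on its own horizontal scale. In the first panel, which is descriptive, 37 points lie right of 0 and the point of Lyz1 depends on how the fit treats its absence from proliferating cells. In the other panels blue and red mark genes lower or higher at an adjusted p under 0.05, and in the middle panel 18 points are blue and 0 red.

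The comparison that the series was made for sets n-Sen alkali against n-Sen control. Here part of the macrophage genes fell and none rose. The largest falls were those of Aif1 and Mrc1, and the falls extended to Fc receptors, C1q, the oxidase subunit Cybb and the surface antigen Adgre1, whereas Lyz2, the integrins and several cytoskeletal genes did not pass the test. With edgeR's quasi-likelihood test, adjusted over all genes after Benjamini and Hochberg, 18 of the 39 tested genes were lower, 0 were higher and 21 did not pass. Over all 19129 genes tested, 10.4% were lower and 9.58% higher. The median log2 fold change was -0.27 for the 39 genes, with 36 negative and 3 positive values, and -0.0093 for all genes.

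Here values in parentheses are log2 fold changes ± SE of n-Sen alkali over n-Sen control. Mrc1 had 4.63 and 5.84 CPM in n-Sen alkali, against 13.6 and 14.5 CPM in n-Sen control. The groups were well apart, with a log2 fold change of -1.43 ± 0.133 (adjusted p = 2.77e-08, edgeR). The ratio of Mrc1 to Lyz2, as CPM, was 0.00684 and 0.00866 in n-Sen alkali and 0.0185 and 0.0216 in n-Sen control. Aif1 had 0.768 and 0.659 CPM in n-Sen alkali, against 2.30 and 1.73 CPM in n-Sen control, again with no overlap, though at levels of at most 2.3 CPM (-1.50 ± 0.326, edgeR adjusted p = 0.00157). The calls of both genes held with each library left out in turn.

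Fcgr3 had 15 and 12.5 CPM in n-Sen alkali, against 25.3 and 21.5 CPM in n-Sen control, and its log2 fold change was -0.77 ± 0.106 (edgeR adjusted p = 8.66e-06). Ms4a7 had 15.9 and 18.4 CPM in n-Sen alkali, against 29.3 and 28.2 CPM in n-Sen control (-0.75 ± 0.09, edgeR adjusted p = 1.16e-06). Cybb had 25 and 27.4 CPM in n-Sen alkali, against 40 and 39.8 CPM in n-Sen control (-0.62 ± 0.0748, edgeR adjusted p = 1.43e-06). In all 3 the alkali libraries lay below both control ones. The same separation held for Adgre1 at 37.5 and 38.3 CPM in n-Sen alkali, against 58.5 and 53.9 CPM in n-Sen control (-0.58 ± 0.0656, edgeR adjusted p = 5.76e-07), and for Plek, a substrate of protein kinase C, at 15 and 15.1 CPM in n-Sen alkali, against 22.8 and 21.5 CPM in n-Sen control (-0.56 ± 0.0925, edgeR adjusted p = 7.96e-05).

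Smaller falls passed the test as well. The C1q genes C1qa, C1qb and C1qc had log2 fold changes of -0.22, -0.32 and -0.34, with edgeR adjusted p-values of 0.00967, 0.0013 and 0.000275. C5ar1 had 14.2 and 13 CPM in n-Sen alkali, against 17.7 and 19.3 CPM in n-Sen control (-0.45 ± 0.101, edgeR adjusted p = 0.0022). Csf1r had 63.8 and 63.4 CPM in n-Sen alkali, against 78.3 and 76.9 CPM in n-Sen control (-0.30 ± 0.0554, edgeR adjusted p = 0.00036). Tyrobp and Fcgr2b had log2 fold changes of -0.48 and -0.42, Trem2 and Cd53 of -0.55 and -0.45, and Lcp1 and Laptm5 of -0.37 and -0.23. Their edgeR adjusted p-values lay between 4.73e-05 for Lcp1 and 0.0107 for Laptm5. Of the 18 calls, 14 held under every alternative run. Those of C1qa (without control replicate 1 or alkali replicate 1), Trem2 (without control replicate 1), Cd53 (without alkali replicate 1) and Laptm5 (without alkali replicate 2) were lost when that library was left out.

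The genes that did not pass spanned the roles. Lyz2 had 677 and 675 CPM in n-Sen alkali, against 732 and 672 CPM in n-Sen control, which overlapped, with a log2 fold change of -0.06 ± 0.0422 (edgeR adjusted p = 0.358). Itgb2 had 24 and 24.9 CPM in n-Sen alkali, against 26.4 and 26.3 CPM in n-Sen control (-0.11 ± 0.0805), and Itgam 12.5 and 12.3 CPM in n-Sen alkali, against 12.9 and 13.1 CPM in n-Sen control (-0.08 ± 0.107). For both integrin genes the alkali libraries were slightly the lower, by less than the test could separate. Ncf1 (-0.0026), Cd14 (-0.0018), Cx3cr1 (0.02) and Coro1a (-0.03) had log2 fold changes near 0. Syk (0.10 ± 0.062) and Arhgdib (0.05 ± 0.0473) were the other positive values beside Cx3cr1. Clec7a had 1.44 and 1.48 CPM in n-Sen alkali, against 2.61 and 2.09 CPM in n-Sen control, apart but scarce (-0.69 ± 0.26, edgeR adjusted p = 0.0648). Ptprc had 13 and 18.7 CPM in n-Sen alkali, against 17.8 and 20.2 CPM in n-Sen control, with alkali replicate 2 inside the control range (-0.27 ± 0.124, edgeR adjusted p = 0.147). Spi1 overlapped between groups at 14 and 11 CPM in n-Sen alkali, against 16.9 and 13.1 CPM in n-Sen control. The others that did not pass (C3ar1, Fcer1g, Ms4a6d, Cyba, Nckap1l, Myo1f, Dock2, Mpeg1 and Lyz1) had log2 fold changes between -0.42 for Lyz1 and -0.11 for Cyba. Of these 21 genes, 9 passed as lower under at least 1 alternative run. Lyz2 did so without control replicate 2 (log2 fold change -0.12, edgeR adjusted p = 0.0142), and Spi1 without that library or without alkali replicate 1. Ptprc, C3ar1 and Lyz1 had their lowest p without alkali replicate 2, with edgeR adjusted p-values of 0.000258, 0.00624 and 4.44e-05. Fcer1g and Myo1f had theirs without alkali replicate 1 (edgeR adjusted p = 0.000712 and 0.0179). Mpeg1 passed without control replicate 2, without alkali replicate 2, with no filter and with a replicate block, and Clec7a with no filter. The highest adjusted p of the 9 genes over the alternatives ran from 0.361 for Clec7a to 0.989 for Lyz2. Differences between genes in the size of their fall were not tested.

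**Figure D3:**
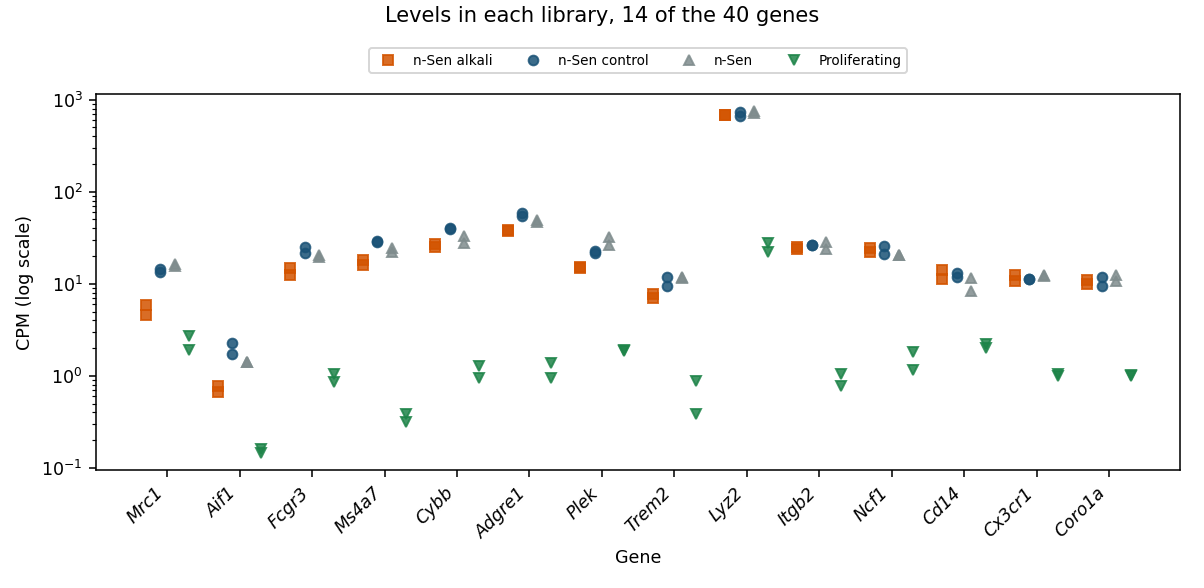
Level of 14 genes in each library, in CPM on a log scale, with 1 marker per library and the 4 groups side by side, shown for contrast and chosen after their values were seen. For the 8 genes from Mrc1 to Trem2 both n-Sen alkali markers lie below both n-Sen control markers, for Lyz2, Itgb2, Ncf1, Cd14, Cx3cr1 and Coro1a the adjusted p missed 0.05, and proliferating cells are lowest for each.

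The comparison of n-Sen control with n-Sen asks what 24 h in the HEPES medium of control pH changed. The groups lie in different count tables, so table and medium cannot be told apart. Of 39 tested genes, 2 were higher and 5 lower in n-Sen control by edgeR's quasi-likelihood test, where 6.18% of all 20215 genes tested were higher and 4.96% lower. The median log2 fold change was -0.06, and values in parentheses are for n-Sen control over n-Sen. Syk rose, with 48.1 and 48.5 CPM in n-Sen control and 32.6 and 35.7 CPM in n-Sen (0.50 ± 0.0741, edgeR adjusted p = 7.5e-05). Cybb rose as well, with 40 and 39.8 CPM in n-Sen control and 27.5 and 32.7 CPM in n-Sen (0.40 ± 0.0931, edgeR adjusted p = 0.00576). Neither gene's libraries overlapped between the groups. Plek (-0.40), C3ar1 (-0.34), Nckap1l (-0.34), Cyba (-0.18) and Lyz1 (-2.59) fell, with edgeR adjusted p-values of 0.0124, 0.036, 0.0336, 0.045 and 0.00927. Of these 7 calls, that of Syk alone held under every alternative run, and 0 of the 5 falls passed without n-Sen replicate 2, without control replicate 1 or without control replicate 2. Adgre1, Csf1r and Ms4a7 passed as higher with these groups alone in the fit, and Cd14 without n-Sen replicate 2. Clec7a (0.64 ± 0.284), Aif1 (0.50 ± 0.31) and Cd14 (0.33 ± 0.147) had the largest positive values that did not pass.

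The n-Sen control group is shared by both comparisons of the senescent cultures, so their values are given side by side. Cybb was at 25 and 27.4 CPM in n-Sen alkali, 40 and 39.8 CPM in n-Sen control and 27.5 and 32.7 CPM in n-Sen. Adgre1 was at 37.5 and 38.3 CPM in n-Sen alkali, 58.5 and 53.9 CPM in n-Sen control and 47.2 and 49.4 CPM in n-Sen. For both genes, and for Csf1r, the alkali libraries were below those of n-Sen as well as those of n-Sen control. Mrc1, at 15.7 and 16.3 CPM in n-Sen, stood below both other senescent groups in n-Sen alkali. C1q, Plek and C5ar1 were likewise lower in n-Sen alkali than in either of the others.

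Other macrophage genes, taken from a list of 48 that are not among the 40, were counted in the same way. That list was also chosen with earlier results of these data known, so its counts in n-Sen over proliferating cells are a description. Some of its genes, such as Fcgr4 (0 and 0.0398 CPM in proliferating cells), passed the filter on low counts only through n-Sen. In n-Sen over proliferating cells 37 of 43 tested were called higher and 2 lower, with a median log2 fold change of 2.39, where 34.0% of all genes tested were higher and 33.1% lower. Those of smallest p were Gas6 (2.35), a bridging protein that binds dying cells, Ctss (4.39), a lysosomal protease, Lilrb4a (4.73), an inhibitory receptor, and Stab1 (3.49), a scavenger receptor. Gas6 was already abundant in proliferating cells, at 124 and 113 CPM, where most of the 40 genes were scarce. So were Gpnmb (128 and 124 CPM), Lgals3 (114 and 112 CPM) and Cd9 (84.5 and 80.8 CPM), which limits their use as macrophage markers here. The 2 lower ones were Irf5 (-0.44) and Arg1 (-1.24). In n-Sen alkali over n-Sen control 17 of 42 were lower and 1 higher, with a median of -0.30, against 10.4% lower and 9.58% higher over all genes. Marco, a scavenger receptor, had 1.07 and 0.773 CPM in n-Sen alkali, against 4.78 and 3.36 CPM in n-Sen control (-2.16 ± 0.261, edgeR adjusted p = 1.39e-06). Cbr2, a carbonyl reductase of some tissue macrophages, had 10.7 and 11.7 CPM in n-Sen alkali, against 21.8 and 21.4 CPM in n-Sen control (-0.96 ± 0.0992, edgeR adjusted p = 1.41e-07). Mertk, a receptor for dying cells, had 20.8 and 19.7 CPM in n-Sen alkali, against 31.6 and 35.6 CPM in n-Sen control (-0.74 ± 0.0844, edgeR adjusted p = 5.63e-07). Sirpa, an inhibitory receptor for CD47, had 43.9 and 49.5 CPM in n-Sen alkali, against 72.3 and 66.6 CPM in n-Sen control (-0.58 ± 0.0663, edgeR adjusted p = 6e-07). In these 4 genes both alkali libraries lay below both control ones. Sirpa (34.2 and 37.5 CPM) and Mertk (14 and 14.5 CPM) were not scarce in proliferating cells either. This limits their use as macrophage markers here too. Arg1, which encodes arginase, rose instead, with 3.05 and 3.48 CPM in n-Sen alkali, against 0.328 and 0.905 CPM in n-Sen control (2.39 ± 0.335, edgeR adjusted p = 1.08e-05). In n-Sen control over n-Sen 7 of 43 rose and 3 fell, where 6.18% of all genes were higher and 4.96% lower. The number that fell was thus near the share over all genes. Those that rose included Mertk (0.68), the lectin receptors Clec4n (1.42) and Clec4d (0.72) and the Toll-like receptor Tlr2 (0.78). The 3 that fell were Sirpa (-0.32), Cd68 (-0.35) and Lgals3 (-0.20).

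Signalling and cytoskeletal genes of blood cells, a list of 36, were called higher in 31 of 34 tested in n-Sen over proliferating cells and lower in 1, Runx1 (-0.31), with a median of 3.37, against 34.0% higher and 33.1% lower over all genes. Among those of smallest p were Inpp5d (4.03), Hcls1 (3.76) and Arhgap30 (4.19). This list too was chosen with earlier results of these data known, so its counts in that comparison are a description. Was, Sash3, Cd52 and Rgs1, among others, were below the level of the filter on low counts in both proliferating libraries. They passed it only through n-Sen. In n-Sen alkali over n-Sen control 5 of 36 fell and 2 rose, where 10.4% of all genes were lower and 9.58% higher. These counts were near the shares over all genes, so they show nothing about the list, and the genes are given singly. Ptpn6, a phosphatase that restrains receptor signalling, fell (-0.52 ± 0.133, edgeR adjusted p = 0.00604), and so did Cd52 (-0.81 ± 0.2, edgeR adjusted p = 0.00467). Runx1, a transcription factor of blood cell formation, was among those that rose (0.58 ± 0.0606, edgeR adjusted p = 1.54e-07). In n-Sen control over n-Sen 6 of 36 rose, among them Runx1 (0.34 ± 0.0672, edgeR adjusted p = 0.00132), and 1, Cd48 (-0.93), fell, against 6.18% higher and 4.96% lower over all genes.

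The macrophage growth factors and attractants form a list of 11, also chosen with earlier results of these data known. Csf1, the ligand of the receptor encoded by Csf1r, had 1185 and 1178 CPM in n-Sen alkali, 916 and 943 CPM in n-Sen control, 679 and 696 CPM in n-Sen and 629 and 624 CPM in proliferating cells. It was high in every library and highest in n-Sen alkali, with log2 fold changes of 0.34 ± 0.0369 for n-Sen alkali over n-Sen control (edgeR adjusted p = 3.01e-07) and 0.44 ± 0.0383 for n-Sen control over n-Sen (edgeR adjusted p = 5.58e-08). Il34, the other ligand, had 2.75 and 2.94 CPM in n-Sen and 1.53 and 1.98 CPM in proliferating cells. In n-Sen over proliferating cells 7 of 10 tested were called higher and 2, Mif (-1.03) and Csf3 (-2.02), lower, where the shares over all genes were 34.0% and 33.1%. In n-Sen alkali over n-Sen control 3 of 10 tested rose and 0 fell, the others being Tgfb1 (0.43) and the chemokine Ccl7 (0.63), where 9.58% of all genes were higher and 10.4% lower. In n-Sen control over n-Sen 4 of 10 rose and 1, Ccl7 (-0.57), fell, where 6.18% of all genes were higher and 4.96% lower. With 10 genes, these counts are small. Csf2 was at 0 in all 8 libraries.

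Markers of other cell types, in lists also chosen with earlier results of these data known, were set beside the same libraries. The 16 fibroblast genes summed to 45027 and 45799 CPM in n-Sen alkali, 40354 and 44533 CPM in n-Sen control, 43630 and 42696 CPM in n-Sen and 19769 and 19489 CPM in proliferating cells. These sums were many times those of the 40 macrophage and leukocyte genes, which were 1731 and 1741 CPM in n-Sen alkali, 1998 and 1905 CPM in n-Sen control, 1940 and 2062 CPM in n-Sen and 456 and 407 CPM in proliferating cells. Neither sum is scaled by gene length, so their ratio does not measure the share of cells of each type. Arhgdib (258 and 225 CPM), Cyba (57.6 and 56.4 CPM) and Syk (46.8 and 41.2 CPM) made up most of the proliferating sum of the 40 genes. Fn1 was the largest single part of the fibroblast sums, with 20592 and 19915 CPM in n-Sen and 5537 and 5494 CPM in proliferating cells. Of the 16 fibroblast genes, 11 were called higher and 5 lower in n-Sen over proliferating cells, and 4 higher and 8 lower in n-Sen alkali over n-Sen control. The 5 lower in n-Sen were Pdgfra (10.7 and 8.91 CPM, against 84.5 and 91.3 CPM in proliferating cells), Prrx1, Thy1, Twist1 and Twist2, so the sums did not follow every marker. Over all genes 34.0% were higher and 33.1% lower in the first comparison, and 9.58% higher and 10.4% lower in the second. The fibroblast genes called lower in the first were near the share over all genes. The part of that change in the values above was not tested.

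Markers of neutrophils, B cells, mast cells and T cells were at or near 0, while some megakaryocyte and platelet genes were not. The 12 neutrophil genes summed to at most 1.66 CPM in any library, the 7 B cell genes to at most 1.73 CPM, the 9 mast cell and basophil genes to at most 1.81 CPM and the 13 T and NK cell genes to at most 3.44 CPM, most of it Trac. Cd3e, Cd3g, Cd79b, Ms4a1, Mpo, S100a9 and the haemoglobin genes Hba-a1 and Hbb-bs were at 0 in all 8 libraries. The 10 erythroid and megakaryocyte genes summed to 24.2 and 26.4 CPM in n-Sen alkali, 19.1 and 18.6 CPM in n-Sen control, 16.2 and 17.9 CPM in n-Sen and 13.6 and 12.8 CPM in proliferating cells. Most of this was Gp1bb, a subunit of a platelet receptor, with 18.1 and 18.2 CPM in n-Sen alkali, 14 and 14.5 CPM in n-Sen control, 12.7 and 13.9 CPM in n-Sen and 9.93 and 9.20 CPM in proliferating cells, but exons of Sept5 on the same strand cover 91.1% of its exon bases, so its level is uncertain. Ppbp, a chemokine gene of platelets, had 4.86 and 6.32 CPM in n-Sen alkali, 2.69 and 2.13 CPM in n-Sen control, 1.22 and 2.24 CPM in n-Sen and 1.58 and 1.51 CPM in proliferating cells. Both were called higher in n-Sen alkali over n-Sen control (edgeR adjusted p = 0.0146 for Gp1bb and 6.66e-05 for Ppbp), and Itga2b, a platelet integrin subunit, stayed at or below 1.97 CPM. Of the monocyte genes, Ccr2 had no value above 0.0804 CPM, and Vcan, which fibroblasts also express, carried the sum. MHC class II and dendritic cell genes summed to 10.8 to 13.2 CPM in the n-Sen alkali and n-Sen control libraries, 9.07 and 10.4 CPM in n-Sen and 5.86 and 7.41 CPM in proliferating cells. H2-Ab1 did not exceed 1.70 CPM. Genes of the list of 48 that are used for resident macrophages of particular tissues differed in level. Timd4 was at 0 in all 8 libraries, Lyve1 did not exceed 0.619 CPM and F13a1 0.504 CPM. Folr2 had 2.18 and 2.19 CPM in n-Sen and 0.888 and 0.727 CPM in proliferating cells, Marco had 2.64 and 2.81 CPM in n-Sen and 0.72 and 0.518 CPM in proliferating cells, Cbr2 had 24.2 and 22.3 CPM in n-Sen and 8.02 and 7.93 CPM in proliferating cells and Stab1 had 111 and 121 CPM in n-Sen and 11.9 and 8.81 CPM in proliferating cells, each called higher in n-Sen. Among 6 microglia genes, Siglech was at or near 0, and the sum was 122 to 144 CPM in senescent libraries and 60.4 and 58.1 CPM in proliferating ones.

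**Figure D4:**
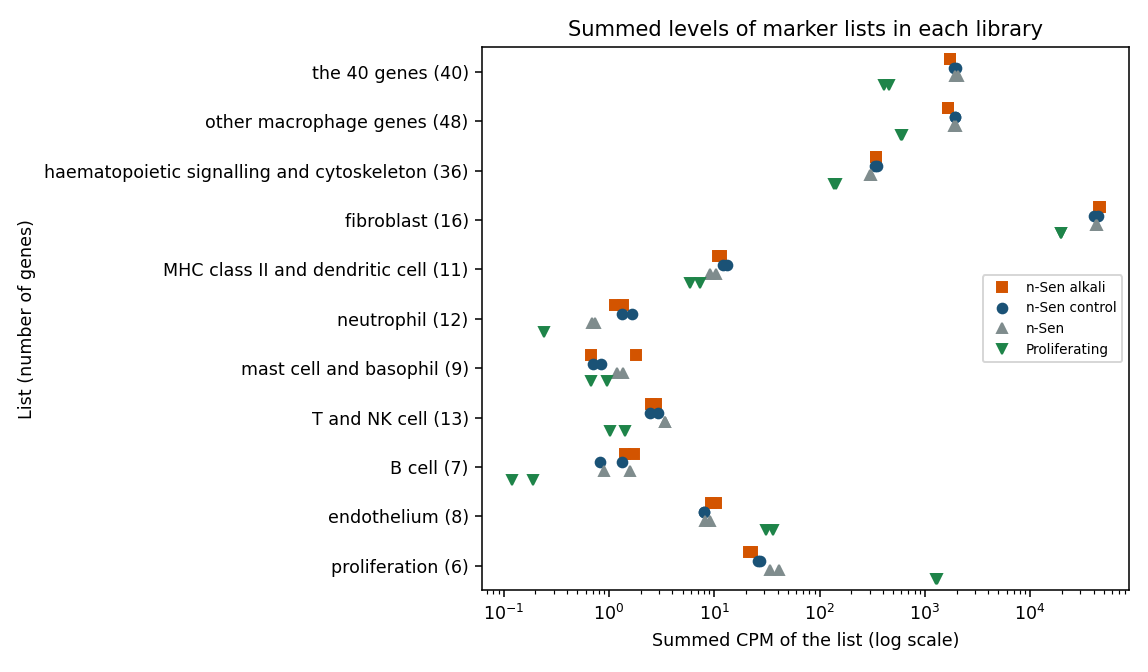
Summed CPM of 11 gene lists (rows) in each library on a log scale, with 1 marker per library and the groups offset within each row. The 40 genes sum to 1731 to 2062 CPM in senescent libraries and to 456 and 407 CPM in proliferating ones, while neutrophil, mast cell, T and NK cell and B cell lists stay below 4 CPM, and 1 proliferating library with a neutrophil sum of 0 is not drawn.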

How the data were processed

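Messenger RNA of 8 MEF libraries, 2 in each of 4 groups, was, per the labels' protocols, made into strand-marked libraries. Build mm10 and the tools HISAT2 2.1.0, fastp 0.23.2, DESeq2 1.34.0 and Subread 2.0.2 with featureCounts are named per the submitters' processing notes. The strand setting and annotation release are not given in the sources used here. The authors deposited expected counts, which are estimates that may be fractions of a read, in 2 tables, and 32.7% to 33.7% of nonzero values were fractional. Among whole values from 1 to 20, 67.5% to 69.1% were even in each library, so both mates of a pair may have been counted, and a count may then stand for less than a fragment.

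Values were rounded, filtered with filterByExpr and scaled by TMM before the quasi-likelihood F-test in edgeR 4.0.16 (R 4.3.3, limma 3.58.1), with Benjamini-Hochberg adjustment over all genes and a threshold of 0.05. The fits of n-Sen with proliferating cells and of n-Sen alkali with n-Sen control used their own 4 libraries, and that of n-Sen control with n-Sen used all 8. CPM used TMM sizes over all 8, and exon lengths came from GENCODE vM21 (GRCm38, the same as mm10). SE was the absolute log2 fold change over the square root of F. The chi-square per degree of freedom between libraries of a group was 4.63 to 7.39, more than counting error alone would give. Counting both mates of a pair would raise it too. It cannot tell libraries of separate cultures from libraries of the same culture. The procedure was also run on simulated counts for each comparison, with the same spread for every gene, and the outcome is not reported here. DESeq2 1.42.0, its size factors, no filter, unrounded counts, a replicate block, other sets of libraries in the fit and leaving out each library were alternatives. Same-numbered libraries of different groups did not deviate together (correlations from -0.0145 to 0.0222).

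The 40 genes and the other lists were chosen with earlier results of these data known. All 40 are named. Of other lists, up to 4 called genes of smallest p and those that moved against the majority are named, except a few left out of the text. Counting error limits genes with few counts.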

Additional observations from a re-analysis of the deposited data

How the results depend on the processing

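In n-Sen over proliferating cells 37 of the 40 genes stayed higher and 2 lower under every alternative run. In n-Sen alkali over n-Sen control 0 were higher throughout, and the number lower was 18 with DESeq2, with its size factors and with unrounded counts, 21 with no filter, 22 with the replicate block, 16 with all 8 libraries in one fit and 18 to 21 with a library left out. C1qa and Laptm5 were lost in the fit of all 8. In n-Sen control over n-Sen, 5 genes were higher with these groups alone in the fit and 1 to 3 with a library left out, against 2. The number lower was 2 with DESeq2 and 0 to 3 with a library left out, against 5. Over all genes, leaving out a library gave 731 to 816 higher and 450 to 569 lower, against 1250 and 1003. The lone library left in a group is then assumed to vary like the others. The replicate block pairs libraries that share only a number.

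Signs turned in the cases below, in each without an adjusted p under 0.05 for the turned value. For n-Sen alkali over n-Sen control, Cd14 was 0.0033 with DESeq2's size factors, 0.0036 with DESeq2 and 0.0059 with all 8 libraries. Ncf1 was 0.0026, 0.0015 and 0.0045 in these and 0.0025 with the block. With a library left out, Cd14 ran from -0.16 to 0.14, Ncf1 from -0.14 to 0.15, Lyz2 from -0.12 to 0.0018, Coro1a from -0.19 to 0.15, Lyz1 from -3.50 to 0.47 and Cx3cr1 from -0.11 to 0.13. For n-Sen control over n-Sen, Itgb2 was 0.0021 with the block, and with a library left out it ran from -0.12 to 0.13, Ms4a6d from -0.0122 to 0.0892, Mpeg1 from -0.0953 to 0.0522, Spi1 from -0.007 to 0.36, Lyz2 from -0.12 to 0.0038, Trem2 from -0.30 to 0.0224, Myo1f from -0.0906 to 0.062 and Coro1a from -0.31 to 0.0333. The median of the tested genes ran from -0.10 to 0.0038. The cause was not tested. With 2 libraries a group, genes at few counts such as Lyz1, Aif1 and Clec7a are limited by counting error.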
